A study of Bos taurus with 46 samples.

Results

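Immediate early genes are transcribed within minutes of a stimulus, without the need for new protein synthesis. The group described here holds 10 of the 30675 genes in the deposited NCBI gene table: FOS, FOSB, JUN, JUNB, ATF3, EGR1, EGR2, NR4A1, IER2 and IER3. They were chosen by symbol, with earlier results of these data known. All 10 were present and passed the filter on low counts in every comparison. FOS, FOSB, JUN, JUNB and ATF3 encode leucine zipper proteins that pair into AP-1 type transcription factors. EGR1 and EGR2 encode zinc finger transcription factors, NR4A1 an orphan nuclear receptor, and IER2 and IER3 regulators that are also induced by growth factors and stress. In blood leukocytes these transcripts respond to activation and also to how the blood is drawn, held and separated.

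The animals were 23 Angus crossbred heifers carrying pregnancies from artificial insemination (AI, the control, n = 8) or from transferred in vitro produced (IVP) embryos sired by a Brahman bull. IVP pregnancies were split by fetal weight at collection into IVP-Normal (n = 6) and IVP-LOS (large offspring syndrome, n = 9). Leukocytes of each heifer were taken on day 55 (D55) and day 105 (D105) of gestation, giving 46 libraries. Blood was drawn from the tail vein into EDTA tubes, the buffy coat was collected by cold centrifugation, red cells were lysed at room temperature, and the washed pellet was frozen. Heifers 604 and 664 carried the largest LOS fetuses, and the study compared this pair with the other 21 heifers. The paper also chose the pair because its libraries separated from the rest in clustering of these same data. The grouping is therefore not independent of the expression values. All D55 libraries and the D105 libraries of IVP-Normal belong to a library set labelled New, whereas the D105 libraries of AI and IVP-LOS belong to a set labelled BACKUP. Day and library set therefore cannot be told apart within AI or IVP-LOS, but IVP-Normal has both days in one set. A supplementary legend of the paper gives winter and summer as the collection seasons of D55 and D105. Its discussion names autumn, spring and summer instead, and the heifers were synchronized in separate sets, in November and in February. Day and season may therefore not be separable in any treatment, IVP-Normal included.

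Reads on genes ranged from 18692653 to 24502012 per library. The share of reads on no annotated gene was 38.0% for heifer 604 and 36.1% for heifer 664 on D105, against 23.9% to 30.5% in the other 21 D105 libraries. These were also the libraries with the fewest reads on genes. The summed level of 9 neutrophil markers was 698 CPM (counts scaled to a common library size) in 604 and 648 CPM in 664 on D105, below the lowest of the other 21 heifers at 1231 CPM. The summed level of 8 monocyte markers was 327 and 518 CPM, against a lowest value of 687 CPM in the others. Platelet markers summed to 5908 CPM in 604 and to 797 CPM in 664, and the other 21 reached at most 1501 CPM. Erythroid markers summed to 602 and 139 CPM, against at most 151 CPM in the others. B cell markers summed to 5276 and 6656 CPM, against at most 5950 CPM in the others. Sums of T cell, natural killer cell and eosinophil markers in the pair lay within the range of the others. In bulk leukocytes, fewer cells of a type and less RNA per cell cannot be told apart.

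FOS and EGR1 varied most from heifer to heifer. Levels are CPM scaled by the trimmed mean of M values (TMM). FOS ranged from 22.9 CPM in heifer 664 on D55 to 1585 CPM in heifer 606 on D105, and EGR1 from 8.93 CPM in heifer 647 on D55 to 1318 CPM in heifer 628 on D105. Within a treatment and day, the SD of log2(CPM + 1) was 1.31 for FOS, 1.37 for EGR1, 1.25 for FOSB and 1.02 for EGR2. The median SD over 13857 genes with a mean of at least 1 CPM was 0.25, and only 57 of them had a larger SD than EGR1. IER2 stood at the other end with an SD of 0.26, larger than in 54.2% of genes. The remaining members lay between, from 0.46 for JUNB to 0.75 for JUN.

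A few libraries were high for most members at once. On D105, heifer 648 of AI was among the 3 highest of 23 heifers for 7 of 10 members, and heifers 606 of AI and 628 of IVP-Normal for 6 each. In these libraries JUNB was 736, 703 and 772 CPM, against 257, 279 and 283 CPM in the same heifers on D55. The high libraries of D55 came from other animals: heifer 669 of IVP-Normal was among the 3 highest for 8 members and heifer 602 of IVP-LOS for 6. JUN was 280.2 and 227 CPM in these on D55 and 100.5 and 149.9 CPM on D105, and NR4A1 was 62.1 and 29.9 CPM on D55 and 23.4 and 15.996 CPM on D105. At the low end on D105 were heifer 604, among the 3 lowest for 6 members, and heifer 557 of IVP-LOS, for 5.

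On D105 the library sets overlapped for all members. FOS had a lowest, median and highest level of 37.7, 374 and 1585 CPM in the 17 BACKUP libraries and of 153, 470.4 and 1369.9 CPM in the 6 New libraries. EGR1 had 33.2, 179 and 727 CPM in BACKUP and 137, 425 and 1318 CPM in New. IER2 had 163, 217 and 389 CPM in BACKUP and 166, 284 and 356 CPM in New. The New libraries are all IVP-Normal and the BACKUP libraries all AI or IVP-LOS, so set and treatment cannot be told apart on that day.

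**Figure D1:**
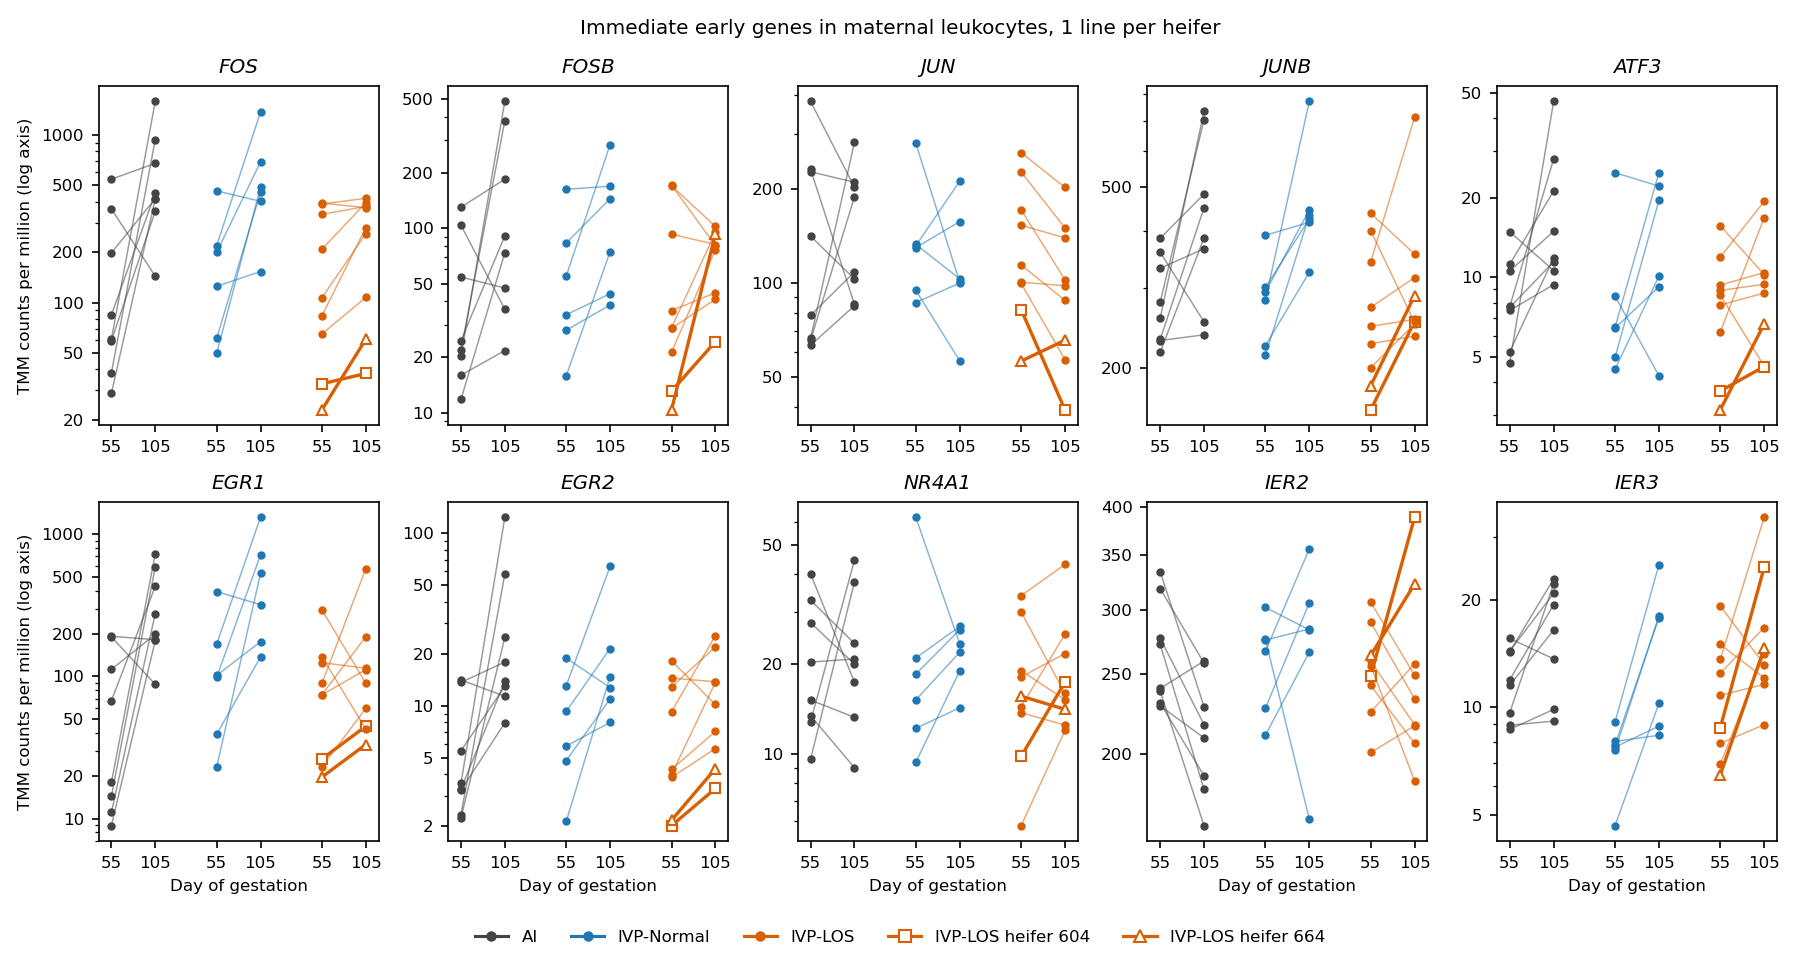
Level of each member in TMM CPM on a log axis, with 1 line per heifer from day 55 to day 105 and colours for the 3 treatments. Open squares and triangles mark heifers 604 and 664, which had the lowest FOS of all 23 heifers on D105, at 37.7 and 60.4 CPM.

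The first question was how the members differed between D55 and D105 in the same animals. At least 6 of the 10 members were higher on D105 in 19 of 23 heifers, while at most 4 were higher in the other 4 heifers (517 of AI, 669 of IVP-Normal, 602 and 616 of IVP-LOS). FOS was higher on D105 in 20 of 23 heifers, JUNB in 20, IER3 in 20 and EGR2 in 19. JUN was higher in only 8 and IER2 in 9. By edgeR's quasi-likelihood test with Benjamini-Hochberg adjustment, 2 of 10 members were called in AI, both higher on D105, where 9.95% of all genes tested were called. There 8 members had an unadjusted p under 0.05, as did 3452 of 15248 genes tested. This fit took both libraries of a heifer as independent. In IVP-Normal 0 of 10 were called, where 2.45% of all genes were. An unadjusted p under 0.05 was reached by 5 members and by 2035 of 15248 genes tested. In IVP-LOS 0 of 10 were called, where 0.251% of all genes were. There 1 member had an unadjusted p under 0.05, as did 1911 of 15163 genes tested. DESeq2 called 6, 2 and 0 members in AI, IVP-Normal and IVP-LOS, where it called 12.9%, 4.91% and 2.22% of all genes tested. In the edgeR fits that left out 1 AI heifer, 0 members were called without heifer 606 or without heifer 648, 1 without 533 or 546, and 5 without 517, where 7.06% to 10.6% of all genes were called.

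With the heifer as a replicate block, which pairs the libraries of an animal, 5 members were called in AI, 4 in IVP-Normal and 0 in IVP-LOS. In these fits 17.1%, 5.5% and 1.07% of all genes tested were called. In IVP-LOS 4 members had an unadjusted p under 0.05, as did 2763 of 15163 genes. The AI calls were FOS (adjusted p = 0.0369), EGR1 (0.0449), EGR2 (0.0314), IER3 (0.0332) and, lower on D105, IER2 (0.0173), all by edgeR's quasi-likelihood test. ATF3 had an adjusted p of 0.0591 in that fit. The IVP-Normal calls were FOS (adjusted p = 0.0429), JUNB (0.0251), EGR1 (0.0493) and IER3 (0.0278), all higher on D105 and all within one library set. No heifer was left out of the fits with the block.

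FOS and FOSB encode the Fos proteins of AP-1. In AI, FOS had a lowest, median and highest level of 28.7, 72.5 and 544 CPM on D55, and of 144, 432 and 1585 CPM on D105. In IVP-Normal the values were 49.7, 162 and 464 CPM on D55 and 153, 470.4 and 1369.9 CPM on D105. In IVP-LOS they were 22.9, 106.9 and 392 CPM, then 37.7, 279.9 and 419 CPM. The days overlapped in every treatment, and the medians stood higher on D105 in each. The log2 fold change of FOS was 1.86 ± 0.62 (SE) in AI (adjusted p = 0.0676), 1.67 ± 0.56 in IVP-Normal (0.184) and 0.50 ± 0.56 in IVP-LOS (0.772), by edgeR without the block. The related gene FOSB gave 1.80 ± 0.68, 0.99 ± 0.58 and 0.16 ± 0.50, none of them called. In AI the median of FOSB was 23.1 CPM on D55 and 82.1 CPM on D105, with heifers 606 and 648 highest on D105 at 486 and 382 CPM.

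JUN, the usual partner of FOS, was not called in any treatment. Its medians in AI were 109.9 CPM on D55 and 148 CPM on D105, in IVP-Normal 131 and 101.7 CPM, and in IVP-LOS 114.1 and 97.8 CPM. The log2 fold changes were 0.02 ± 0.40, -0.24 ± 0.32 and -0.42 ± 0.32, and JUN was lower on D105 in 8 of 9 IVP-LOS heifers. JUNB, a Jun protein with weaker activating capacity than JUN, had medians of 268 and 419 CPM in AI, 288 and 429.9 CPM in IVP-Normal, and 247 and 256 CPM in IVP-LOS. It was higher on D105 in 7 of 8, 6 of 6 and 7 of 9 heifers. Its log2 fold change was 0.67 ± 0.22 in AI (adjusted p = 0.0684), 0.72 ± 0.20 in IVP-Normal (0.0878) and 0.24 ± 0.24 in IVP-LOS (0.732), by edgeR. ATF3, a stress-induced repressor that dimerises with Jun proteins, rose in AI from a median of 7.73 to 13.4 CPM (log2 fold change 1.15 ± 0.33, adjusted p = 0.0351 by edgeR). Its highest AI value was 46.4 CPM in heifer 606 on D105, beside a D55 range of 4.76 to 14.9 CPM. In IVP-Normal and IVP-LOS its log2 fold changes were 0.69 ± 0.48 and 0.28 ± 0.32.

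EGR1, a serum-responsive zinc finger factor, had in AI a lowest, median and highest level of 8.93, 42.8 and 192 CPM on D55 and of 88.0, 237 and 727 CPM on D105. Its log2 fold change was 2.13 ± 0.67 in AI (adjusted p = 0.0531), 1.95 ± 0.68 in IVP-Normal (0.207) and 0.55 ± 0.59 in IVP-LOS (0.760), by edgeR. In IVP-LOS it was higher on D105 in 6 of 9 heifers, the highest of them being heifer 637, at 89.6 CPM on D55 and 573 CPM on D105. Without that heifer the log2 fold change in the fit without the block was -0.16, while EGR1 was higher on D105 in 5 of 8 heifers and their median log2 change was 0.68. EGR2 rose in AI from 2.24, 3.42 and 14.1 CPM on D55 to 7.96, 15.9 and 123.1 CPM on D105. This was a log2 fold change of 2.50 ± 0.61 (5.66-fold, adjusted p = 0.0132 by edgeR), with 7 of 8 heifers higher. Heifer 648 held the highest EGR2 value of all libraries. The corresponding log2 fold changes were 1.29 ± 0.56 in IVP-Normal and 0.58 ± 0.48 in IVP-LOS.

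NR4A1, which is induced downstream of antigen receptors in lymphocytes, was not called in any treatment. It was higher on D105 in 3 of 8 AI, 5 of 6 IVP-Normal and 5 of 9 IVP-LOS heifers, with log2 fold changes of 0.12 ± 0.34, -0.08 ± 0.39 and 0.15 ± 0.30. IER2 was lower on D105 in 7 of 8 AI heifers, with medians of 256 and 213 CPM, and its log2 fold change was -0.32 ± 0.11 (adjusted p = 0.0732 by edgeR). In IVP-Normal and IVP-LOS the log2 fold changes of IER2 were 0.08 ± 0.15 and -0.01 ± 0.12. IER3, which modulates cell survival, was higher in 7 of 8, 6 of 6 and 7 of 9 heifers. Its medians were 11.8 and 17.9 CPM in AI, 7.79 and 14.1 CPM in IVP-Normal and 10.8 and 14.1 CPM in IVP-LOS.

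**Figure D2:**
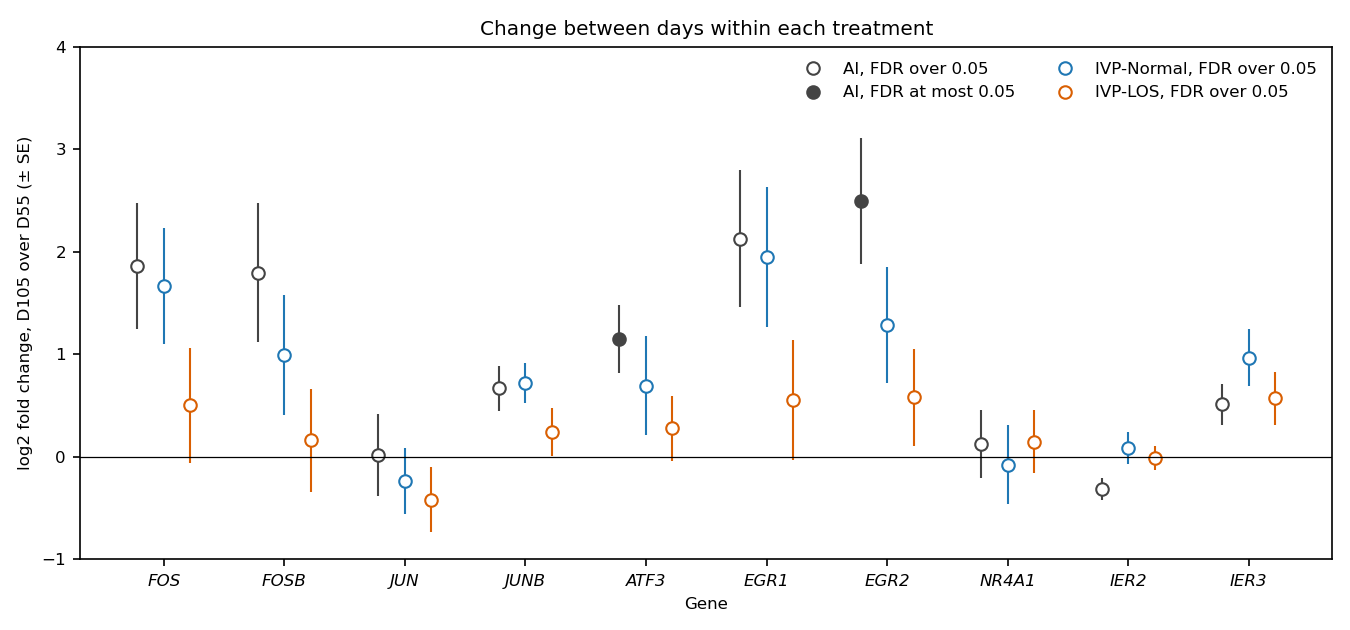
Fitted log2 fold change of each member, D105 over D55, with its SE, in AI, IVP-Normal and IVP-LOS. The fits were made without the heifer block. Filled points have an FDR of at most 0.05, which only ATF3 and EGR2 in AI reach, at 1.15 and 2.50.

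Neutrophil markers moved with day beside these values. Of 8 tested, 7 were called higher on D105 in AI, 5 in IVP-Normal and 0 in IVP-LOS, with median log2 fold changes of 1.34, 1.33 and 1.37. Their summed level ranged from 1085 to 2179 CPM on D55 and from 2440 to 5834 CPM on D105 in AI, and from 682 to 1567 CPM and 1428 to 5865 CPM in IVP-Normal. In IVP-LOS it ranged from 812 to 2359 CPM on D55 and from 648 to 14512 CPM on D105. Of the 8 monocyte markers, 2 were called higher in AI and 0 in the other treatments. The part of these cells in the member values was not tested.

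Related genes were compared by lists, beside the 9.95%, 2.45% and 0.251% of all genes called in AI, IVP-Normal and IVP-LOS. The lists were chosen with earlier results of these data known, so their counts are descriptions and not independent evidence. In AI, 8 of 21 feedback regulators of signalling and mRNA decay were called, all higher on D105, and 7 of 17 rapidly induced effectors and cytokines, all higher. The median log2 fold changes of these lists were 0.57 and 0.82, against -0.02 over all genes tested and 0.91 over the members. The feedback regulators with the smallest adjusted p were GADD45A (log2 fold change 1.203), RGS2 (2.69) and DUSP2 (2.68), and the effectors were CXCL8 (2.27), PLAUR (2.32) and IL1B (3.64). In IVP-Normal, 6 of 21 feedback regulators and 2 of 17 effectors were called, all higher, with medians of 0.91 and 0.84 against -0.03 over all genes. In IVP-LOS, 1 of 21 and 0 of 17 were called, with 10 and 11 at an unadjusted p under 0.05. Over all genes tested, 1911 of 15163 had such a p. The other AP-1 and dimer partners had 2 called higher (FOSL2 and ATF4) and 1 lower (BATF) of 13 in AI, and 0 of 13 in the other treatments. Other rapidly induced transcription factors had 1 higher (NR4A2) and 1 lower (KLF2) of 15 in AI, 1 higher (IER5) in IVP-Normal and 0 in IVP-LOS. Among upstream kinases and constitutive factors, 4 of 23 were called in AI, 3 in IVP-Normal and 1 in IVP-LOS. CREM, a cAMP-responsive regulator, was called higher in all 3, at log2 fold changes of 1.45, 1.58 and 0.98.

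Treatments were next compared within a day. On D55 and on D105, 0 of 10 members were called between any pair of treatments by edgeR's quasi-likelihood test, where 0.0% of all genes were called. DESeq2 and edgeR's likelihood ratio test also called 0 members, where they called 0.00647% to 0.281% of all genes. On D55, 1 member had an unadjusted p under 0.05 between IVP-Normal and AI, 0 between IVP-LOS and AI and 1 between IVP-LOS and IVP-Normal. On D105 these numbers were 1, 5 and 3. Over all genes, such a p was found for 1522, 1179 and 802 on D55 and for 1477, 880 and 501 on D105. Each comparison tested 15236 to 15484 genes. The log2 fold change of IVP-LOS over AI on D105 was -1.28 ± 0.49 for FOS, -1.26 ± 0.55 for EGR1 and -1.52 ± 0.55 for EGR2, each with an adjusted p of 0.754 by edgeR. The change between days was then compared in AI and in IVP-LOS with that in IVP-Normal, and 0 of 10 members were called, where 0.0% of all genes were. In the fit without the block, 1 member had an unadjusted p under 0.05 in AI and 0 in IVP-LOS. So did 546 of 16096 genes tested in AI and 134 of 16181 in IVP-LOS. With the heifer block 0 members and 0.0% of all genes were again called. There 1 member had an unadjusted p under 0.05 in AI and 2 in IVP-LOS. Such a p was found for 1003 of 16096 genes tested in AI and for 449 of 16181 in IVP-LOS. In that fit edgeR gave a log2 difference between IVP-LOS and IVP-Normal of -1.10 ± 0.50 for FOS (unadjusted p = 0.0399) and of -1.64 ± 0.76 for EGR1 (unadjusted p = 0.0443), both with an adjusted p of 0.99995. Between AI and IVP-Normal it was -0.39 ± 0.17 for IER2 (unadjusted p = 0.0287, adjusted 0.754 by edgeR). In both, treatment and library set cannot be told apart.

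Heifers 604 and 664 on D105 had the lowest FOS of the 23 heifers, at 37.7 and 60.4 CPM, against 107.4, 415 and 1585 CPM as the lowest, median and highest of the other 21. They also had the lowest EGR2, at 3.32 and 4.32 CPM, against 5.65 to 123.1 CPM. Both heifers lay below all others for 2 of 10 members, and 6.86% of 13857 genes did so. EGR1 was 44.7 and 33.2 CPM, with 1 other heifer (663, at 42.7 CPM) below the higher of them. JUN was 39.1 and 65.4 CPM, with 2 others below the higher of them. IER2 took the opposite end, at 389 CPM in 604, the highest of all, and 322 CPM in 664, with 1 other heifer above it.

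By edgeR's quasi-likelihood test, 3 of 10 members were called between the pair and the others on D105, where 21.1% of all genes were called. As the pair was partly chosen by clustering of these libraries, the p-values here are descriptive. FOS was lower (log2 fold change -3.41 ± 0.88, adjusted p = 0.0106), JUN was lower (-1.40 ± 0.50, 0.0480) and IER2 was higher (0.56 ± 0.19, 0.0419). EGR1 had -3.14 ± 1.15 (adjusted p = 0.0528), EGR2 -2.66 ± 1.08 (0.0758) and ATF3 -1.48 ± 0.66 (0.102). FOSB differed inside the pair, with 24.3 CPM in 604, where 1 other heifer was lower, and 92.8 CPM in 664, above 13 of the other heifers. IER3 also differed inside the pair, with 24.7 CPM in 604 and 14.7 CPM in 664. Against the other 7 IVP-LOS heifers alone, whose FOS ranged from 107.4 to 419 CPM, the log2 fold change was -2.72 ± 0.50 for FOS (adjusted p = 0.0223), 0.63 ± 0.13 for IER2 (0.0287) and -1.24 ± 0.44 for JUN (0.0935), by edgeR. In that comparison 9.05% of all genes were called. Without 604, or without 664, 0 members were called, where 3.27% and 4.17% of all genes were. The pair is then a single heifer, which is assumed to vary like the others.

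Related genes were compared between the pair and the others on D105 by the same lists, again as a description, beside the 21.1% called over all genes. Of 21 feedback regulators 4 were called, all lower, with DUSP6 (log2 fold change -2.56), DUSP2 (-2.46) and TRIB1 (-1.72) the smallest in adjusted p. Of 17 effectors and cytokines 3 were called, all lower: SGK1 (-2.61), IL1B (-3.31) and THBS1 (-1.93). Other rapidly induced transcription factors had 3 of 15 called, all lower (KLF4, KLF10 and KLF6), and the other AP-1 and dimer partners 4 lower and 2 higher of 13. The lower ones were led by FOSL2 (-2.61), and BATF (0.98) and ATF4 (0.63) were higher. The median log2 fold changes were -0.83 for feedback regulators and -1.90 for effectors, against -0.02 over all genes tested and -1.25 over the members. Among upstream kinases and constitutive factors 3 of 23 were called lower and 2 higher. On the same day 7 of 9 neutrophil and 6 of 8 monocyte markers were called lower in the pair, and the part of these cells was not tested.

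On D55 several members also stood low in the pair, while others did not. From the lowest of 23, heifers 604 and 664 ranked 10 and 13 for IER2 and 8 and 5 for EGR1. They ranked 4 and 12 for NR4A1 and 10 and 2 for IER3. The share of reads on no gene was 25.8% and 23.8%, against 23.2% to 30.6% over all D55 libraries. Its part in the levels of the pair was not tested. FOS was 32.7 and 22.9 CPM, with 1 other heifer below 604 and 664 the lowest of 23, and ATF3 was 3.71 and 3.15 CPM, below all others, whose lowest was 4.48 CPM. JUNB, at 162 and 183 CPM, was likewise below all others, whose lowest was 200.5 CPM. Both heifers lay below all others for 2 of 10 members on D55, and 0.505% of genes did so. All 10 log2 fold changes were below 0, with -2.81 ± 1.08 for FOS and -0.77 ± 0.25 for JUNB. By edgeR 0 of 10 were called, where 0.0179% of all genes were. An unadjusted p under 0.05 was found for 5 members and for 790 of 16733 genes tested. DESeq2 also called 0, where it called 0.0478% of all genes. The change between days in the pair was set against that in the other heifers by edgeR's test with the heifer block. Of 10 members 0 were called, where 16.7% of all genes were. An unadjusted p under 0.05 was found for 1 member and for 5811 of 17266 genes tested. The log2 difference was -0.79 ± 1.10 for FOS and 0.60 ± 0.23 for IER2, the latter with an adjusted p of 0.0701 and the only member called by DESeq2, which called 19.7% of all genes.

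**Figure D3:**
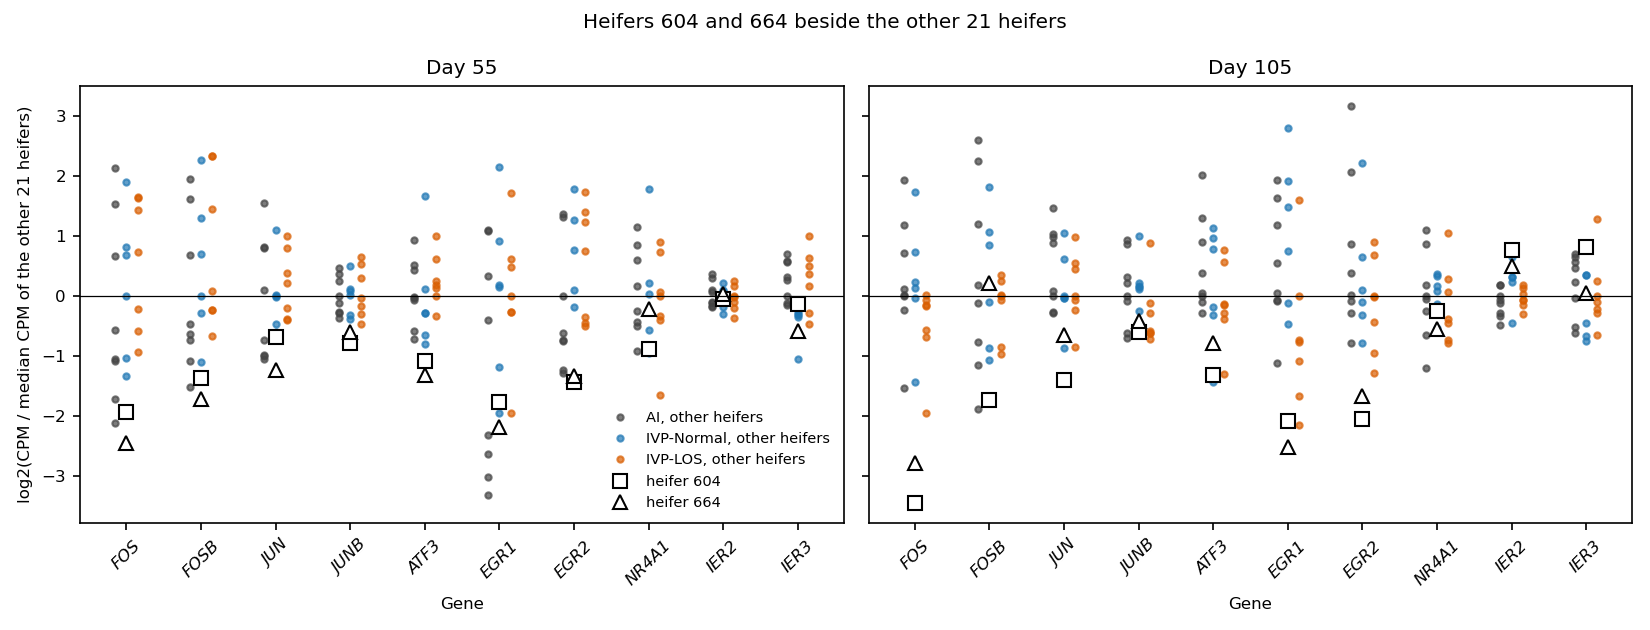
Level of each member in each heifer, as log2 of its CPM over the median CPM of the other 21 heifers of that day. Squares (604) and triangles (664) lie below 0 for FOS, JUN, JUNB, ATF3, EGR1 and EGR2 on both days, and above 0 for IER2 on D105.

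Over the 46 libraries, after the mean of each treatment and day was removed, most members varied together. Pearson's r ranged from -0.49 to 0.87 over the 45 pairs, with a median of 0.61. The pair FOS and EGR2 had r = 0.87, FOS and JUN 0.87, FOS and FOSB 0.84 and FOS and EGR1 0.78. IER2 had a median r of -0.29 with the other members, and IER3 of 0.35. These are descriptions over libraries that share animals, and carry no test.

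**Figure D4:**
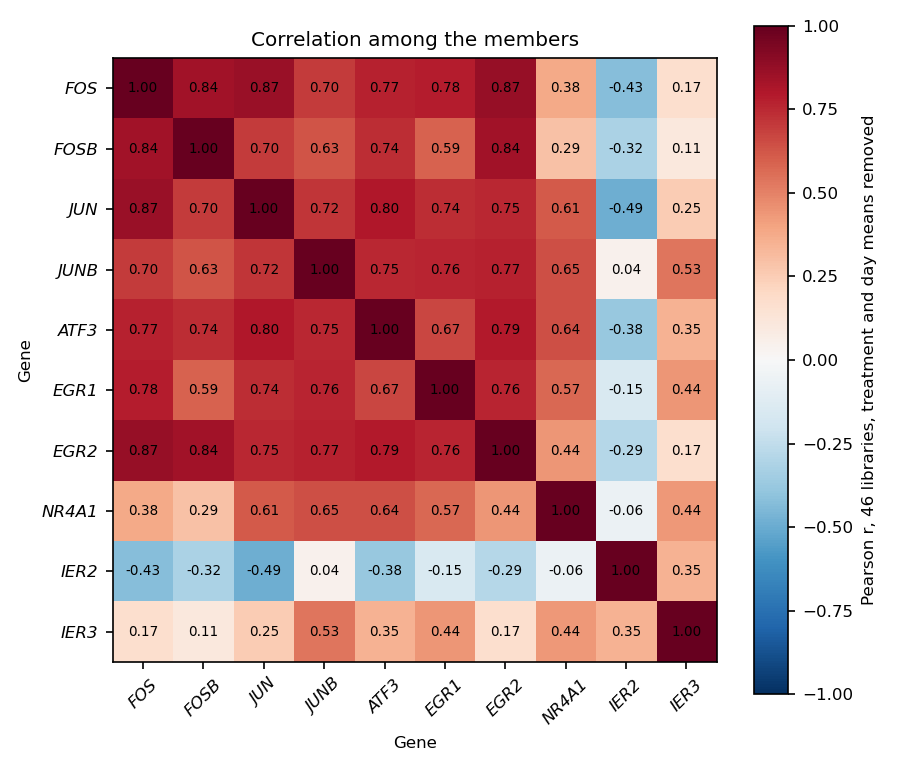
Pearson's r between members over 46 libraries after removal of treatment and day means, with values printed in the cells. The block of FOS, FOSB, JUN, JUNB, ATF3, EGR1 and EGR2 has r of 0.59 or more, while IER2 is negative with JUN at -0.49.

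The 10 other genes most like the members' mean z-score over these libraries were IQCN (r = 0.84), DNAJB13 (0.82), DUSP2 (0.82), LOC112444803 (0.80), LOC112444802 (0.80), BTG2 (0.80), PLAUR (0.78), DUSP1 (0.78), KDM6B (0.78) and PTGS2 (0.77). DUSP1 and DUSP2 encode phosphatases that switch off MAP kinases, and PTGS2 encodes an inducible cyclooxygenase. Of these 10 genes, 5 belong to the lists of feedback regulators and effectors. The lists were chosen with earlier results of these data known, and the overlap was not tested.

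The relation between the D55 and the D105 level of a member across the 23 heifers passed the test for 0 of 10 members. Pearson's r of log2(CPM + 1) was 0.28 for FOS (permutation p = 0.188, Benjamini-Hochberg adjusted 0.551 over 10 members; rho = 0.14, permutation p = 0.527, adjusted 0.659). JUN had the highest r, 0.35 (permutation p = 0.108, adjusted 0.551; rho = 0.35, permutation p = 0.104, adjusted 0.500), and EGR1 had -0.003 (permutation p = 0.989, adjusted 0.989; rho = -0.10, permutation p = 0.659, adjusted 0.733). Without the 2 heifers farthest from the median on D55, r was 0.11 for FOS and 0.20 for JUN. Within treatments, the r of FOS was -0.37 in AI, 0.18 in IVP-Normal and 0.91 in IVP-LOS.

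The share of reads on no gene was set against each member on each day, which gave 20 relations. Pearson's r had opposite signs on the 2 days for every member other than IER3, which had 0.27 on both. After adjustment 12 of 20 relations passed by r and 0 of 20 by rank, where the lowest adjusted p of rho was 0.0600. On D55 the r of EGR2 was 0.61 (permutation p = 0.00263, adjusted 0.0144; rho = 0.58, permutation p = 0.00387, adjusted 0.0600) and that of FOS 0.53 (permutation p = 0.00946, adjusted 0.0229; rho = 0.47, permutation p = 0.0243, adjusted 0.0602). Without the 2 farthest heifers these were 0.50 and 0.44. On D105 the r of FOS was -0.70 (permutation p = 0.00047, adjusted 0.0078; rho = -0.42, permutation p = 0.0447, adjusted 0.0894), and that of EGR2 -0.53 (permutation p = 0.0114, adjusted 0.0229; rho = -0.51, permutation p = 0.0132, adjusted 0.0600). Without 604 and 664, the 2 farthest heifers, both became -0.27, so these D105 values rested on that pair. JUN on D105 had -0.64 (permutation p = 0.00078, adjusted 0.0078; rho = -0.50, permutation p = 0.015, adjusted 0.0600) and -0.43 without 604 and 664. Within the 17 libraries of the BACKUP set on D105, which include 604 and 664, the r of FOS was -0.78. Within the 6 New libraries it was 0.09. The BACKUP value was not computed without the pair, so the sets cannot be contrasted by these values.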

How the data were processed

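Both deposited tables hold raw counts, with 1 value for each gene and library, and carry no normalization. The authors trimmed the reads, aligned them to ARS-UCD1.2 with HISAT2 2.1.0 and counted them with HTSeq in union mode against the RefSeq genes. The summary lines of each table were left out of library sizes. Members were matched by symbol in the NCBI table, and the second table, with Ensembl identifiers, was not used. The members and lists were chosen with earlier results of these data known.

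Counts were filtered (filterByExpr, minimum count 10), scaled by TMM and tested with edgeR 4.0.16 (glmQLFit, glmQLFTest; R 4.3.3), with Benjamini-Hochberg adjustment over all genes tested and a threshold of 0.05. Alternatives were DESeq2 1.42.0, edgeR's likelihood ratio test, upper-quartile scaling, no filter, all treatments in a fit, the heifer block and leaving out heifers. The same heifer number was taken to mark the same animal on both days, as the paper drew blood from the same females. The deviations of its libraries from their group means correlated over genes at 0.29 to 0.84, above 0.1 in 23 of 23 heifers. This correlation was highest with the heifer's own library in 21 of 23 heifers, but not in 633 (0.29) and 656 (0.31). Correlations used log2(CPM + 1) and 100000 permutations, two-sided. Before use, the fitting code was tested on simulated data that held known fold changes. Those simulated libraries were independent, with no heifer effect, no library set effect and no pair picked by clustering. The test therefore does not cover these features of the data. The named genes were all members, up to 3 called genes per list and direction with the smallest adjusted p, and the 10 most like genes. Within a day, p-values of the fits measure the spread between heifers of these groups. Fits on both days without the block count both libraries of a heifer as independent. With the block, p-values measure how the change between days varies from heifer to heifer. Those of the correlations come from the permutations.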

Additional observations from a re-analysis of the deposited data

Results flagged for a closer look

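Within each treatment and day, the gap of the highest or lowest heifer to its nearest neighbour was set against the whole range of log2(CPM + 1), which gave 60 tests. In 5 of them the gap passed Dixon's 95% limit, and chance alone passes about 1 in 20 groups. Heifer 669 of IVP-Normal on D55 stood above its group for JUN (280.2 CPM) and ATF3 (24.9 CPM), and it was also among the 3 highest of 23 heifers for 8 of 10 members that day. JUNB was far above the group in heifer 628 of IVP-Normal on D105 (772 CPM) and in heifer 637 of IVP-LOS on D105 (712 CPM). IER3 was far below the group in heifer 519 of IVP-Normal on D55 (4.66 CPM).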

How the results depend on the processing

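For the day comparison in AI, 2 members were called, against 6 with DESeq2, 6 with edgeR's likelihood ratio test and 5 with the heifer as a replicate block; leaving out 1 heifer, without the block, gave 0 to 5. In IVP-Normal, 0 were called, against 2, 2 and 4 in the same fits and 1 with all treatments in the fit; leaving out 1 heifer gave 0. In IVP-LOS the count was 0 under each alternative run. For heifers 604 and 664 on D105, 3 were called, against 5 with the likelihood ratio test, 1 without the filter, 0 without either heifer of the pair (the lone heifer is then assumed to vary like the others) and 2 without the D105 library of heifer 637, a setting chosen after the data were seen. DESeq2 called 1 member, IER2, for the pair's change between days. The replicate block changed no other call count. Near-zero log2 fold changes turned: JUN in AI was -0.025 with upper-quartile scaling and -0.26 to 0.30 with 1 heifer left out, JUN in IVP-Normal -0.49 to 0.14, NR4A1 in AI -0.15 to 0.37, and NR4A1 in IVP-Normal 0.20 with the replicate block and -0.19 to 0.51 with 1 heifer left out. In IVP-LOS, FOSB was -0.069 without 604 and 664 and -0.030 to 0.48 with 1 heifer left out, EGR1 -0.16 to 1.05 and IER2 -0.11 to 0.043. For the pair, IER2 on D55 was 0.0034 against the other IVP-LOS heifers, and IER3 on D105 was -0.14 to 0.60 with 1 of the pair left out. The causes were not tested. Member levels without TMM moved by less than 1 SD in 60 of 60 group means, and a pseudocount of 0.1 changed no correlation call. The alternative on the Ensembl table was not run, because its identifiers could not be paired with symbols here.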
